A study of Mus musculus with 2 samples.

Results

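Among stromal cells of mouse perivascular adipose tissue, the fat that surrounds the aorta, a small set carried transcripts of at least 2 of the 4 transcription factors Tbx20, Tcf21, Gata4 and Hand2. The data were single-cell RNA counts from 2 libraries of wild-type mice, 1 library labelled young and 1 labelled old, and the submitters called the cells primary perivascular stromal cells. The sources used here do not give the ages, sex or number of the mice, the part of the aorta or any culture before capture. A cell barcode was taken as mesenchymal when it had at least 500 detected genes, at most 10% mitochondrial unique molecular identifiers (UMIs, each counting 1 captured transcript), at least 10 UMIs of Col1a1, Col1a2 and Col3a1 together, and no UMI of Pecam1, Cdh5, Ptprc, Upk3b, Upk1b, Sox10, Top2a or Mki67. Those holding at least 1 UMI of 2 or more factors are called factor-positive below, and those with no UMI of any of the 4 are called factor-free. The young library had 429 factor-positive barcodes and the old library 162, together 591 of 13951 mesenchymal barcodes and of 27740 barcodes in all.

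Tbx20 is a T-box transcription factor needed for the chambers and valves of the developing heart. Tcf21 is a basic helix-loop-helix (bHLH) factor of the epicardium and of the fibroblasts that descend from it, Gata4 is a zinc-finger factor of the heart and of foregut mesenchyme, and Hand2 is a bHLH factor of the heart, branchial arches and limb buds. The factors are best known together from the heart, where they are used by fibroblasts and mesenchymal precursors as well as by muscle cells. Perivascular stroma holds fibroblasts of the vessel's outer coat and precursors of fat cells, and is not the tissue in which these factors are usually studied.

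The promoters of Tbx20, Tcf21 and Hand2, the 3 of the 4 factors matched in the table, are shown because these genes define the cells. That of Gm34030 is added, a long non-coding RNA gene next to Hand2 that led the ranking of genes higher in factor-positive barcodes. Each sequence runs 5′ to 3′ from 250 bases before to 50 after the start of the gene in RefSeq on GRCm38.p6. Tbx20 was read from chr9:24774254-24774553 (minus strand), Tcf21 from chr10:22820094-22820393 (minus strand), Hand2 from chr8:57320733-57321032 (plus strand) and Gm34030 from chr8:57333690-57333989 (minus strand). The Gm34030 window lies inside the gene as the GENCODE annotation places it (chr8:57331692-57334585), because the 2 sources give different starts. Capitals mark a GATA-type motif, AGATAA, on either strand.
Tbx20: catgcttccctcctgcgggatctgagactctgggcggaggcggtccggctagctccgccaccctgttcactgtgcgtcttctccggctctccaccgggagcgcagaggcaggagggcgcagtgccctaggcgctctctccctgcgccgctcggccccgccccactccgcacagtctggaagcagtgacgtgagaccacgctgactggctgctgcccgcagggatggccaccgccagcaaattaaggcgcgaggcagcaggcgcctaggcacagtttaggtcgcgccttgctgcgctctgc
Tcf21: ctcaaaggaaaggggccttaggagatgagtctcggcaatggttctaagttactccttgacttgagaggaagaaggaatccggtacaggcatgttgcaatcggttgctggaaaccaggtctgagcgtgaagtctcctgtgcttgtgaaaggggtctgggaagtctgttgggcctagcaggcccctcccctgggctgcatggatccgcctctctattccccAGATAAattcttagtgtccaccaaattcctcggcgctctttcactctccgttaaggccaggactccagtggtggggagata
Hand2: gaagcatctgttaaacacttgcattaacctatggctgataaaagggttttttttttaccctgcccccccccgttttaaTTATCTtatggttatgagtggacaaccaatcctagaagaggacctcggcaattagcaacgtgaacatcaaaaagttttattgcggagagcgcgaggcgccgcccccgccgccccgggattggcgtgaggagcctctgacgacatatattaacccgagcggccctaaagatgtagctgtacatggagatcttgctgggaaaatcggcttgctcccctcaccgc
Gm34030: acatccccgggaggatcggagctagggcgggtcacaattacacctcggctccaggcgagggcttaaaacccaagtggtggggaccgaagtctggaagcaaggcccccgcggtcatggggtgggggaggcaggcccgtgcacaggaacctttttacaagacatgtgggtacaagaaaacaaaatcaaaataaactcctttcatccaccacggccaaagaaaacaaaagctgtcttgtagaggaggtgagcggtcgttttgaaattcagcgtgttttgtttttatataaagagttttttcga
AGATAA was searched on both strands and occurred 1 time in the Tcf21 and 1 time in the Hand2 window, while 11.18% of the 32851 promoter windows of this length in the RefSeq table held it. The E-box CAGCTG, present in 16.3% of the windows, and the T-box motif AGGTGTGA, present in 1.275%, were searched in the same way and occurred 0 times in the 4 windows shown. The wider E-box CANNTG, which contains CAGCTG and was found in 72.31% of the windows, occurred 2 times in the Hand2 and 2 times in the Gm34030 window and is not in capitals. These matches describe the letters of the windows.

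The young library held 13104 barcodes and 130398999 UMIs, and the old library 14636 barcodes and 147166475 UMIs. Factor-positive barcodes were deeper than factor-free ones, with a median of 11490 against 8161.5 UMIs in young and 10177 against 8472.5 in old barcodes. Their median mitochondrial share was 2.475% against 2.688% in young and 2.307% against 2.321% in old barcodes. The 2 libraries shared 275 barcode sequences, of which 12 were factor-positive in the young library and 0 in the other. Without these barcodes the shares below were 5.88% and 2.47%, and 144 genes were higher and 175 lower in factor-positive barcodes of both libraries, against the 145 and 178 given below. With 1 library per age there was no replicate, so no test across animals was possible and no p-value is given. All intervals below are exact 95% intervals (Clopper-Pearson for shares, Poisson for counts and their ratios) and cover counting error only. For a count of 0 the limit given is that of 3 counts, not the upper bound of an interval.

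Factor-positive barcodes made up 5.92% of the mesenchymal barcodes of the young library (interval 5.39 to 6.49) and 2.42% of those of the old library (2.06 to 2.81), a ratio of 2.45. After every barcode had been thinned to 3000 UMIs the shares were 1.56% and 0.679%, a ratio of 2.29. In cycling mesenchymal barcodes, those with a UMI of Top2a or Mki67 that the rule leaves out, 334 of 3842 young (8.69%, 7.82 to 9.63) and 95 of 3461 old barcodes (2.75%, 2.23 to 3.35) held 2 or more factors, at medians of 11640.5 and 11896 UMIs. The young library therefore had the larger share among the non-cycling, the thinned and the cycling barcodes. Among the mesenchymal barcodes as a whole, Tcf21 differed most between the libraries, at 18.5 counts per 1000000 UMIs (CPM) in young and 4.27 in old ones. Hand2 was at 7.46 and 2.59 CPM, Tbx20 at 17.8 and 12.4 CPM, and Gata4 at 5.85 and 4.13 CPM.

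Tbx20 was the factor most often present. It was found in 333 of 429 young (77.6%) and 148 of 162 old factor-positive barcodes (91.4%), at 148 and 244 CPM, with up to 17 and 20 UMIs in a barcode. Tcf21 was found in 68.3% and 60.5% of them, at 87.3 and 81.4 CPM. Gata4 was found in 47.8% and 50%, at 48.4 and 52.7 CPM, and Hand2 in 45.2% and 35.2%, at 55.0 and 41.0 CPM. The cells were selected on these counts, which are therefore a description.

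Most factor-positive barcodes held exactly 2 factors, 284 young and 108 old ones, while 123 and 48 held 3, and 22 and 6 held all 4. Tbx20 with Tcf21 was the most frequent combination in both libraries, with 100 young and 43 old barcodes. Tbx20 with Gata4 followed with 56 young and 32 old barcodes. Tcf21 with Hand2 and neither of the others was held by 43 young barcodes and by 0 old ones, which allows a share of up to 1.85% (3 counts of 162).

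**Figure D1:**
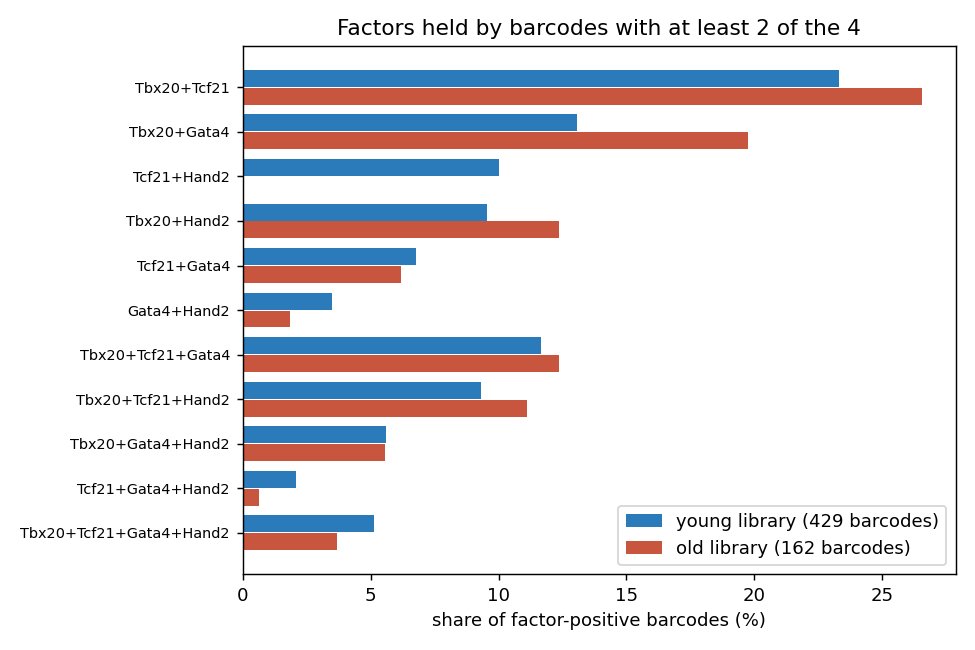
Share of factor-positive barcodes (%) with each combination of Tbx20, Tcf21, Gata4 and Hand2, as bars for the young (429 barcodes) and the old library (162 barcodes). Tbx20 with Tcf21 is the longest bar in both libraries, at 23.3% and 26.5%, and Tcf21 with Hand2 has 10.0% in young and 0% in old barcodes.

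The factors were found together more often than their separate shares give. In the young library 152 mesenchymal barcodes held Tbx20 and Gata4, 6.43 times the 23.65 given by the product of their shares, and 212 held Tbx20 and Tcf21, 3.18 times the product. In the old library 87 barcodes held Tbx20 and Tcf21, 7.95 times the product of 10.94, and 53 held Tbx20 and Hand2, 7.45 times the product. Across the 6 pairs the ratio lay between 2.61 and 6.43 in young and between 4.23 and 7.95 in old barcodes. After thinning to 3000 UMIs, which removes differences in depth between barcodes, the ranges were 3.07 to 6.68 and 5.52 to 11.9, resting on 9 to 43 young and 3 to 19 old barcodes per pair.

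Free RNA can place UMIs in cells that do not use a gene, and endothelial barcodes are given for comparison. Whether their UMIs of the factors came from free RNA or from the cells themselves was not tested. In 975 endothelial barcodes of the old library (median 10221 UMIs) a UMI was present in 1.13% for Tbx20, 0.410% for Tcf21, 1.03% for Gata4 and 0.205% for Hand2. Mesenchymal barcodes of the same library (median 8635 UMIs) had 5.47%, 2.98%, 3.46% and 1.94%. Each of the 4 shares was above the endothelial one at a lower depth. The young library had 28 endothelial barcodes, of which 0 held any factor, which allows a share of up to 10.7% (3 counts of 28). Mesothelial barcodes, which line the surface of the fat and can use some of these factors themselves, held Gata4 in 10% of 350 young and 12.7% of 55 old barcodes, and Tcf21 in 9.43% and 5.46%.

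The cells were fibroblastic by the markers checked. Dcn (decorin, a matrix proteoglycan) was at 175 CPM in young and 425 CPM in old factor-positive barcodes, against 100 and 256 CPM in factor-free ones. Lum (lumican) was at 31.2 and 35.6 CPM against 12.8 and 10.4, and Pdgfra, the receptor that marks many fibroblasts, at 128 and 299 CPM against 108 and 196. All 3 fibroblastic markers outside the rule were thus higher in factor-positive barcodes of both libraries. Heart muscle genes were mostly undetected: of 16 cardiomyocyte genes Myh6, Myh7, Actn2, Nppa, Nppb, Ryr2, Mb, Tcap and Pln had 0 UMIs in all 591 barcodes, which allows up to 0.532 CPM in young and 1.60 CPM in old barcodes (3 counts). Tnnc1 had 19 young and 7 old UMIs, and Myl2, Tnni3, Myl3, Myl7 and Actc1 had at most 5 in a library. Of the 4 genes of the list with enough UMIs to be measured, Tnnt2, cardiac troponin T, alone was 2-fold higher in both libraries, against 1.14% of all genes. It was at 17.9 against 3.05 CPM in young (log2 ratio 2.55, interval 2.18 to 2.93) and 7.98 against 1.88 CPM in old barcodes (2.09, 1.20 to 2.87), held by 47 young and 10 old barcodes. The summed list was at 23.1 against 9.37 CPM in young (1.30, 1.01 to 1.58) and 12.8 against 9.86 CPM in old barcodes (0.37, -0.28 to 0.96). Most of it was Tnnt2, with 101 of 130 young and 15 of 24 old UMIs.

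Markers of other cell types were summed by list. The summed endothelial list was at 99.7 against 73.2 CPM in young and 127 against 104 CPM in old barcodes, most of it Eng with 443 and 154 UMIs, while Pecam1 and Cdh5 are at 0 by the rule, Esam had 0 and 2 UMIs and Cldn5 0 and 1. The macrophage list was at 23.8 against 15.9 CPM and 76.6 against 85.6 CPM, with C1qa and C1qc at 0 in both. The mesothelial list was at 9.58 against 9.12 CPM and 4.26 against 8.32 CPM, with Msln and Muc16 at 0. The Schwann list was at 17.2 against 20.3 and 10.6 against 16.3 CPM, the adipocyte list at 2.66 against 5.25 and 22.9 against 44.7 CPM, the lymphoid list at 1.60 against 1.90 and 4.26 against 1.59 CPM (Gata3 alone among its genes), and the neural and chromaffin list at 8.34 against 11.9 and 19.7 against 22.8 CPM. The endothelial list was higher in both libraries beyond counting error (log2 ratios 0.45 and 0.29). So was the macrophage list in the young library (0.58), where Csf1r had 90 of 134 UMIs. The lymphoid list was higher in the old library (1.42, 0.16 to 2.46), on 8 UMIs of Gata3. The part of these lists in the results below was not tested.

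Most factor-positive barcodes lay together when each library was clustered without the genes of the rule. In the young library 321 of 429 factor-positive barcodes (74.8%) fell in 1 of 14 clusters, in which they were 49.6% of 647 barcodes, against 1.64% of all other mesenchymal barcodes. In the old library 105 of 162 (64.8%) fell in 1 of 16 clusters, in which they were 21.5% of 488 barcodes, against 0.916% elsewhere. The young cluster was led by Bmx, Strip2, Pdlim3, Wfdc18 and Gm34030, and the old one by Ptn, Abca8a, Serpina3n, Cxadr and 5033428I22Rik. With a coarser and a finer clustering the leading young cluster held 78.1% and 72.0% of the factor-positive barcodes, which were 49.9% of its 671 and 50.7% of its 609 barcodes. The leading old cluster held 56.8% and 54.3% of them, and they were then 46.5% of its 198 and 52.1% of its 169 barcodes, so that the 21.5% depends on the clustering.

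**Figure D2:**
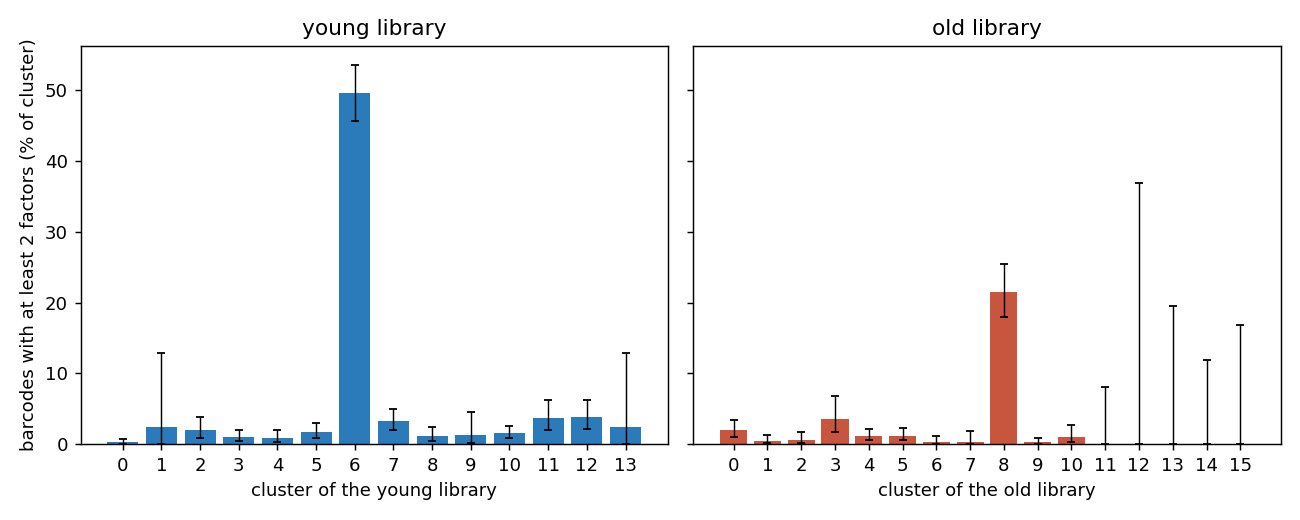
Factor-positive barcodes as a percentage of each cluster of mesenchymal barcodes, with exact 95% intervals, for clusters made in each library without the genes of the rule (cluster numbers of the 2 libraries are unrelated). Cluster 6 of the young library stands at 49.6% and cluster 8 of the old library at 21.5%, and the next highest are at 3.86% and 3.63%. A coarser and a finer clustering gave 46.5% and 52.1% for the leading old cluster.

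The levels of the 4 factors in these clusters are a description, since the clusters were picked for holding the factor-positive barcodes. Tbx20 was at 113 against 5.46 CPM in young and 107 against 5.31 CPM in old barcodes, and Gata4 at 35.1 against 2.07 and 22.1 against 2.77 CPM. Hand2 was at 39.0 against 3.38 and 13.1 against 1.80 CPM. Tcf21 in the young library was at 61.0 against 12.96 CPM, and in the old library at 29.7 against 2.36 CPM.

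Factor-positive barcodes were set against the 5742 young and 6002 old factor-free barcodes of their own library. Of 12716 genes with at least 20 UMIs in each library, 145 (1.14%) were at least 2-fold higher and 178 (1.4%) at least 2-fold lower in factor-positive barcodes of both libraries. With the further demand that the interval of the ratio exclude no difference in both, 114 (0.897%) were higher and 112 (0.881%) lower. The young library taken alone gave 282 and the old library 262 higher genes by this stricter rule, so the 114 are 40.4% of the first and 43.5% of the second. For lower genes the numbers were 426 and 264. Among barcodes with 5000 to 20000 UMIs, where depths are closer, 153 genes were higher and 179 lower, of which 122 and 138 were the same genes.

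**Figure D3:**
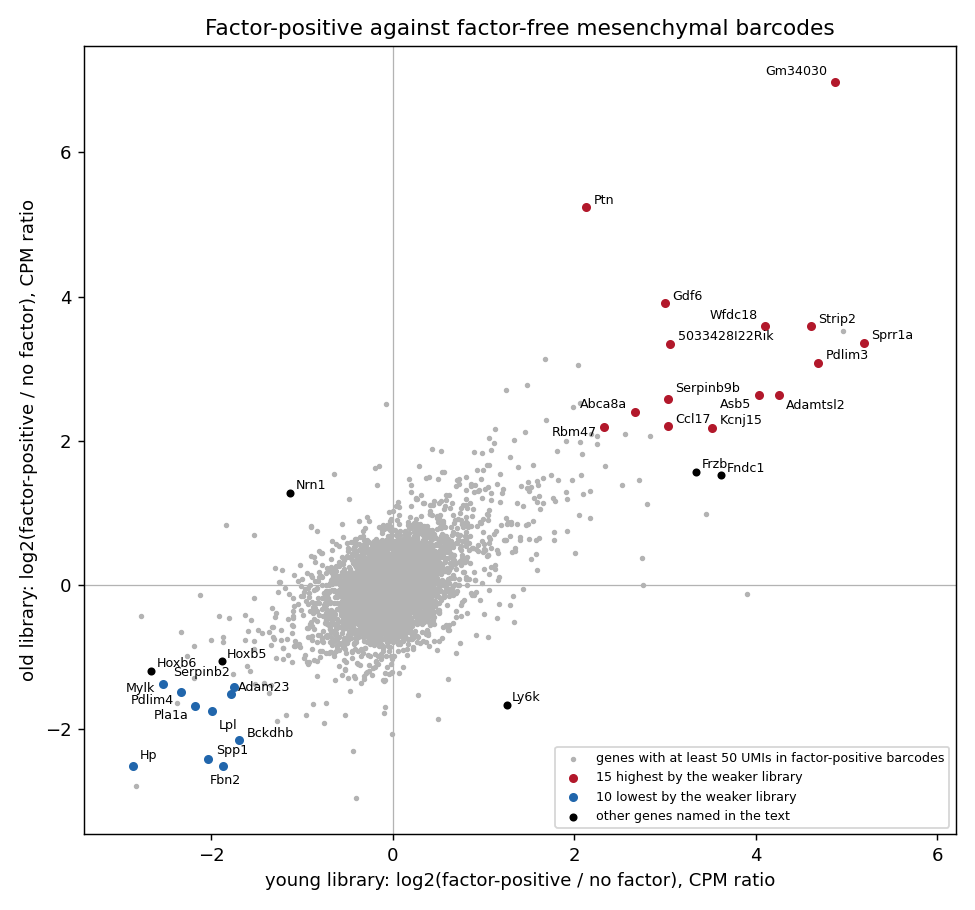
Log2 ratio of CPM in factor-positive to factor-free barcodes for each gene with at least 50 UMIs in factor-positive barcodes, young library on the horizontal and old library on the vertical axis. Gm34030 (4.87 and 6.98) and Ptn (2.13 and 5.24) lie highest, Hp (-2.86 and -2.52) lies at the lower left, and Nrn1 and Ly6k have opposite signs in the 2 libraries.

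Among ranked genes, with at least 50 UMIs in factor-positive barcodes, the 15 with the highest ratios by the weaker library were named. Of these, 2 were long non-coding RNA genes that lie side by side with Hand2 on chromosome 8. Gm34030 (chr8:57331692-57334585 on GRCm38, minus strand, 7059 bases from the end of Hand2) had 49 UMIs in young and 21 in old factor-positive barcodes. Its level was 8.69 against 0.297 CPM in young (log2 ratio 4.87, interval 4.01 to 5.81) and 11.2 against 0.0885 CPM in old barcodes (6.98, 5.53 to 8.74). It was held by 9.09% of young and 11.7% of old factor-positive barcodes, and by 0.261% and 0.0666% of factor-free ones.

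5033428I22Rik (chr8:57332118-57354580, plus strand) begins 7485 bases beyond Hand2 and overlaps Gm34030 on the other strand, and the sources used here do not say whether counting used strand. It stood at 36.0 against 4.32 CPM in young (log2 ratio 3.06, 2.78 to 3.34) and 23.4 against 2.30 CPM in old barcodes (3.35, 2.82 to 3.85). Another gene there, Gm34099 (78471 bases away), had 0 UMIs in young and 4 in old factor-positive barcodes, against 3 and 1 in factor-free ones. Near the other factors, Tbpl1 (beside Tcf21) was at 32.6 against 32.5 and 34.6 against 36.8 CPM, and Ctsb (beside Gata4) at 226 against 252 and 253 against 262 CPM. Neil2, next to Gata4, had 6 and 4 UMIs in factor-positive barcodes (log2 ratios 1.10, -0.47 to 2.42, and 4.10, 1.88 to 6.08), and Gm10824, antisense to Tcf21 and overlapping it, had 8 and 0.

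Secreted products were among the 15 genes, Ptn (pleiotrophin, a heparin-binding growth factor) being one. It was at 116 against 26.5 CPM in young (log2 ratio 2.13) and 44.1 against 1.17 CPM in old barcodes (5.24), held by 25.9% and 14.8% of factor-positive and by 7.80% and 0.650% of factor-free barcodes. Gdf6, a ligand of the BMP family, was at 30.5 against 3.82 CPM (interval of the log2 ratio 2.69 to 3.30) and 6.38 against 0.425 CPM (3.91, 2.77 to 4.96). Adamtsl2, a matrix protein that binds fibrillin and latent TGF-β binding proteins, was at 8.69 against 0.456 and 3.19 against 0.513 CPM, on 49 and 6 UMIs.

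The chemokine gene Ccl17 was at 13.7 against 1.66 and 14.9 against 3.24 CPM, and 1 barcode held 24.7% of its young and 32.1% of its old UMIs. Frzb, a secreted inhibitor of Wnt signalling, was outside these 15 and stood at 67.4 against 6.66 CPM in young (3.34) and 73.9 against 24.9 CPM in old barcodes (1.57), held by 36.1% and 37.7% of factor-positive barcodes. Its level in factor-positive barcodes was close in the libraries, while that in factor-free ones differed.

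Genes for intracellular and membrane proteins were found as well. Pdlim3, which encodes an α-actinin-binding LIM protein of striated muscle, was at 25.01 against 0.971 CPM in young (4.69, 4.21 to 5.19) and 4.79 against 0.567 CPM in old barcodes (3.08, 1.83 to 4.18). Asb5, an ankyrin repeat and SOCS box gene, was at 9.40 against 0.575 and 3.19 against 0.513 CPM. Strip2, a gene of the striatin-interacting family, was at 6.74 against 0.277 and 6.38 against 0.531 CPM, on 38 and 12 UMIs. The potassium channel gene Kcnj15 was at 23.4 against 2.04 and 7.45 against 1.65 CPM, the transporter gene Abca8a at 35.3 against 5.57 and 29.3 against 5.52 CPM, and the RNA-binding protein gene Rbm47 at 9.76 against 1.94 and 12.2 against 2.67 CPM. Serpinb9b, of a multigene family whose members can share reads, was at 38.1 against 4.68 and 54.8 against 9.15 CPM.

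Several of the high ratios rested on a few barcodes, and those of Sprr1a and Wfdc18 changed most without the highest one. Sprr1a, a precursor of the cornified envelope of skin, had log2 ratios of 5.20 and 3.35 from 7 young and 3 old barcodes, and 1 barcode held 82.6% of its young and 81.3% of its old UMIs. Without that barcode in each library the ratios were 2.68 and 0.95. Wfdc18, a WAP-domain gene, had ratios of 4.11 and 3.59 from 14 and 3 barcodes, and 3.71 and 1.27 without the highest barcode of each library. The other 13 genes kept a log2 ratio above 1 in both libraries when the barcode with the most UMIs of the gene was left out. Some of them were also held by few old barcodes. Of the 162 old factor-positive barcodes, 2.47% held Asb5, 3.70% Adamtsl2, 5.56% Pdlim3 and 5.56% Strip2.

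Among ranked genes, with at least 50 UMIs in factor-positive barcodes, the 10 lowest ratios included genes of fat, of contractile cells and of the matrix. Genes under that minimum could be lower, such as Hoxc9, with log2 ratios of -3.52 and -4.10 on 1 UMI in each library. Hp (haptoglobin, an acute-phase protein) was at 9.76 against 71.0 CPM in young (log2 ratio -2.86) and 86.7 against 497 CPM in old barcodes (-2.52). Lpl, the lipoprotein lipase of fat, was at 82.5 against 327 and 100.5 against 338 CPM. Spp1 (osteopontin) was at 62.6 against 256 and 182 against 972 CPM, and Mylk, the myosin light-chain kinase of smooth muscle, at 26.6 against 154 and 69.7 against 181 CPM. Fbn2, the fibrillin of developing tissue, was at 10.5 against 38.2 and 1.06 against 6.09 CPM, with 2 UMIs in old factor-positive barcodes. The log2 ratios of the other 5 genes were between -1.42 and -2.33: Bckdhb (branched-chain amino acid breakdown), Pla1a (a phospholipase), Adam23, Pdlim4 and Serpinb2, an inhibitor of plasminogen activators.

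Other transcription factors of the heart and second heart field were compared as a list. Of 17 measured ones, 0 were 2-fold higher and 0 were 2-fold lower in both libraries. These counts are near the 1.14% higher and 1.4% lower of all genes and are not read as a result. The median log2 ratios were -0.35 and -0.20 against -0.06 and -0.05 over all genes. Gata6, the relative of Gata4, was held by 54.6% of young and 44.4% of old factor-positive barcodes, at 69.4 against 48.7 CPM (log2 ratio 0.51) and 61.7 against 50.7 CPM (0.28). Tbx5 was at 5.85 against 7.67 and 6.38 against 6.53 CPM, and Tbx3 at 5.68 against 12.7 and 11.7 against 19.7 CPM. Hand1 had 0 UMIs in every class, Gata5 0 in factor-positive barcodes, Isl1 0 in young and 1 in old ones, and Nkx2-5 7 in young and 0 in old ones.

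Epicardial genes had mixed values. Of 9 measured genes 0 were 2-fold higher and 0 lower in both libraries, which is near the 1.14% higher and 1.4% lower of all genes. Wt1, a factor of the epicardium and mesothelium, was at 4.08 against 22.6 CPM in young (log2 ratio -2.47) and 9.04 against 15.9 CPM in old barcodes (-0.81). Tbx18 was at 35.1 against 32.0 and 22.3 against 35.4 CPM. Aldh1a1, an enzyme of retinoic acid synthesis, was at 197 against 99.9 CPM (0.98) and 61.2 against 17.2 CPM (1.83). Of 17 measured genes of cardiac and valve fibroblasts, 3 were 2-fold higher in both and 1 lower, against the same 1.14% and 1.4% of all genes. Pcolce2, an enhancer of procollagen processing, was at 132 against 39.6 and 145 against 50.7 CPM, Hsd11b1, which activates glucocorticoids, at 14.7 against 3.27 and 20.7 against 8.38 CPM, and the microfibril gene Mfap4 at 42.2 against 17.8 and 39.9 against 6.13 CPM. Comp, the lower gene, had 2 and 5 UMIs in factor-positive barcodes.

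The summed levels of Hox genes were lower in factor-positive barcodes of both libraries. These genes are ordered along their clusters, and low-numbered groups begin their expression closer to the head than high-numbered ones. The summed level of groups 1 to 4 was 97.0 against 168 CPM in young and 91.5 against 144 CPM in old barcodes. Groups 5 to 7 were at 48.3 against 143 and 125 against 245 CPM, and groups 8 to 13 at 7.63 against 26.9 and 21.3 against 58.6 CPM. The log2 ratios of these sums were -0.79, -1.57 and -1.82 in young and -0.65, -0.97 and -1.46 in old barcodes. The intervals of groups 1 to 4 and 8 to 13 did not overlap in either library (-0.92 to -0.67 and -2.29 to -1.38, and -0.88 to -0.43 and -1.95 to -1.01), while groups 5 to 7 overlapped groups 8 to 13 in both. Of the measured genes, 2 of 8, 5 of 7 and 4 of 7 were at least 2-fold lower in both libraries, and 0 of these 22 were higher, against 1.4% lower and 1.14% higher over all genes. The median log2 ratios were -0.72, -2.13 and -2.38 in young and -0.75, -1.06 and -1.47 in old barcodes.

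Hoxa5, the most abundant of them, was at 36.9 against 93.3 CPM in young (log2 ratio -1.34, -1.55 to -1.14) and 72.9 against 130 CPM in old barcodes (-0.83, -1.09 to -0.59). Hoxb6 was at 1.42 against 8.98 and 8.51 against 19.5 CPM, and Hoxc6 at 0.710 against 4.87 and 2.66 against 16.1 CPM. Hoxc9 had 1 UMI in young and 1 in old factor-positive barcodes, against 103 and 514 in factor-free ones. Among the groups nearest the head, Hoxa3 was at 14.9 against 34.4 and 13.8 against 28.2 CPM, while Hoxb2 was at 25.7 against 43.5 CPM in young and 29.3 against 31.7 CPM in old barcodes.

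**Figure D4:**
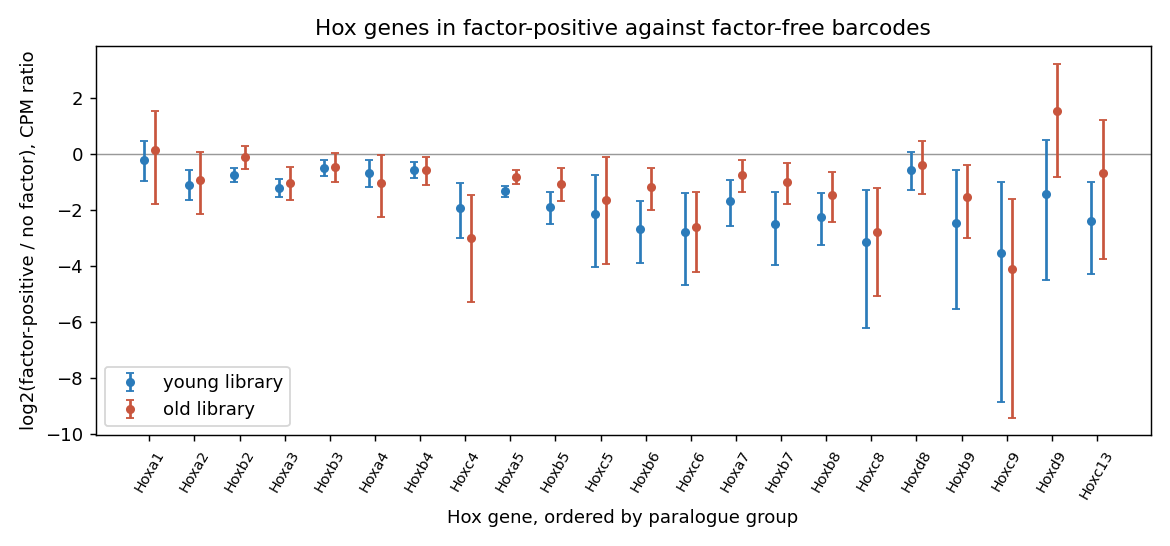
Log2 ratio of CPM in factor-positive to factor-free barcodes for the 22 measured Hox genes, ordered by group number, with exact 95% Poisson intervals, for the young and the old library. Points for Hoxa3, Hoxc4, Hoxb5, Hoxc5, Hoxb6, Hoxc6, Hoxb7, Hoxb8, Hoxc8, Hoxb9 and Hoxc9 lie below -1 in both libraries, while Hoxd9 lies on both sides of 0 with wide intervals.

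Genes of signalling and matrix groups were compared by lists, for which 1.14% of all genes higher and 1.4% lower is the background. Counts of 1 or 2 members are given as values and are not read as results about a list. Of 17 measured Wnt ligands and inhibitors, 1 (Frzb) was 2-fold higher and 3 lower in both libraries, the last being Wnt2, Dkk2 and the Wnt enhancer gene Rspo2, which was at 2.13 against 10.9 and 0.532 against 7.81 CPM. Grem1, a BMP inhibitor, was at 15.4 against 70.3 CPM in young and 37.2 against 66.9 CPM in old barcodes. Of 23 growth factor genes, 2 were higher (Ptn and Fgf9) and 0 lower.

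Against the same 1.14% and 1.4% of all genes, 1 of 22 collagen genes was higher, Col4a6 of basement membranes at 8.87 against 3.03 and 3.19 against 1.01 CPM, and 1 lower, Col23a1, with 1 UMI in each factor-positive group. Of 21 elastic fibre genes 2 were higher, Mfap4 and Ltbp4 (13.8 against 4.30 and 30.3 against 6.22 CPM), and 1, Fbn2, was lower. The cartilage and tendon list had 1 of 8 higher (Matn2) and 1 lower (Comp). In the axon guidance and adhesion list 1 of 25 was higher, Cdh2 (N-cadherin), at 309 against 107 CPM (1.52) and 192 against 75.2 CPM (1.35), and 2 were lower, Sema3a and the ephrin receptor gene Epha3.

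Genes of fat and muscle differentiation were the lists with the most lower members apart from Hox. Of 21 adipogenic genes 0 were higher and 6 lower in both libraries, with medians of -0.90 and -0.96, against 1.14% of all genes higher, 1.4% lower and medians of -0.06 and -0.05. They were Cebpa and Lpl, Plin1, a lipid droplet coat, the preadipocyte gene Dlk1, and the factors Ebf1 and Ebf3. Cebpa, a driver of adipocyte differentiation, was at 4.43 against 24.5 and 10.6 against 38.1 CPM, and Ebf1 at 140 against 302 and 120 against 253 CPM. Of 15 contractile genes 0 were higher and 4 lower (Myh11, Des, Mylk and Itga8), with Des at 10.1 against 24.5 and 1.60 against 5.93 CPM. Tagln, the SM22α gene, was near parity, at 1146 against 1199 CPM in young (log2 ratio -0.07) and 727 against 781 CPM in old barcodes (-0.10).

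Over all genes 1.14% were higher and 1.4% lower in both libraries. Of 19 adventitial progenitor genes 2 (Cd34 and Cd55) were higher and 2 (Igfbp5 and Wnt2) lower, and Pi16, the marker of a universal fibroblast progenitor, was at 1.24 against 0.852 CPM in young and 37.2 against 62.1 CPM in old barcodes. Of 13 splanchnic and foregut genes 0 were higher and 1 (Wnt2) lower. Barx1, a homeobox factor of stomach mesenchyme, was not among the 13, having fewer than 20 UMIs in the old library. It was at 16.1 against 6.14 CPM and 3.19 against 0.195 CPM (6 UMIs). Of 9 pericyte genes 0 were higher and 1 (Cspg4) lower. The inflammatory, immediate early, proliferation, class I presentation and cranial lists had 0 higher and 0 lower of 23, 21, 16, 10 and 14 genes, and the endothelial list had Tek alone, at 2.31 against 1.03 and 2.13 against 0.513 CPM.

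Levels were ordered by the number of factors a barcode held. The 15 highest genes together were at 54.1 CPM in young barcodes with no factor, 144 CPM (137 to 152) with 1, 373 CPM (353 to 394) with 2, 423 CPM (393 to 455) with 3 and 339 CPM (287 to 397) with 4. In the old library they were at 29.6, 65.4, 215, 273 and 258 CPM. The 10 lowest genes went from 1016 CPM with no factor through 589, 275 and 185 to 157 CPM with 4 factors in the young library, and from 2378 through 1360, 616 and 511 to 373 CPM in the old. Barcodes with 1 factor, just outside the limit of the rule, had no part in choosing these genes. Pooled, they lay between the classes on either side, and they are divided by cluster below. The contrast of no factor with 2 or more restates the choice. For the high genes the intervals with 2 and 3 factors, and with 3 and 4, overlapped in both libraries.

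**Figure D5:**
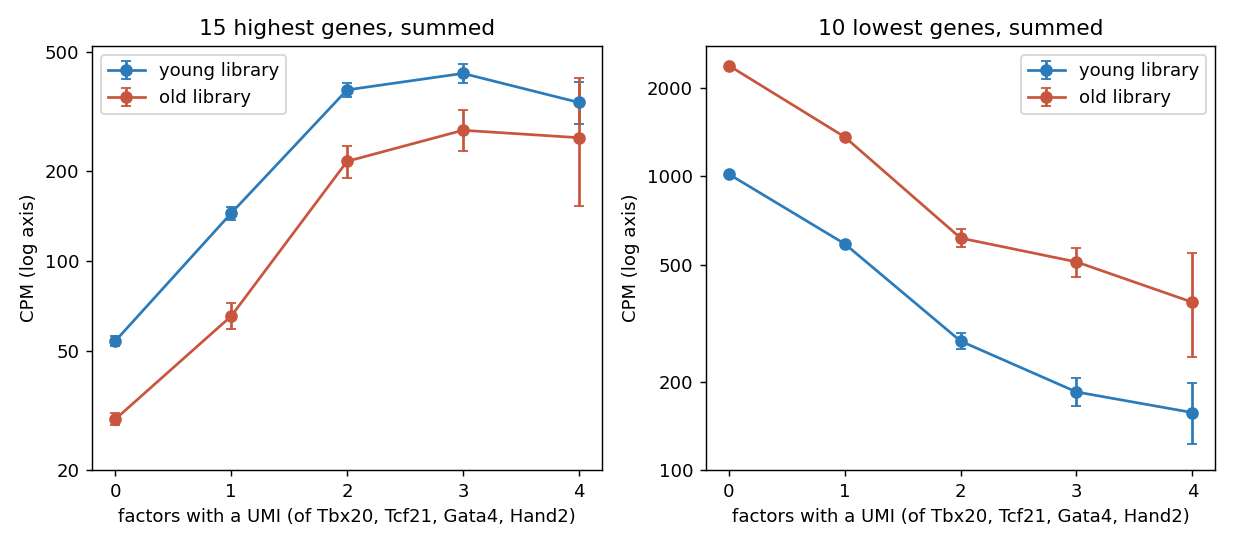
Summed CPM of the 15 highest (left) and 10 lowest genes (right) in mesenchymal barcodes holding 0 to 4 of the factors, with exact 95% Poisson intervals, on log axes. The genes were chosen for the contrast of 0 with 2 or more factors, so only the class with 1 factor is free of that choice. Between 0 and 2 factors the high genes go from 54.1 to 373 CPM in young and from 29.6 to 215 CPM in old barcodes, while the low genes go from 1016 to 275 and from 2378 to 616 CPM.

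Barcodes with a single factor differed by which factor it was. In the young library the 15 genes were at 233 CPM (204 to 265) with Gata4 alone, 177 CPM (161 to 195) with Tbx20 alone, 152 CPM (134 to 171) with Hand2 alone and 112 CPM (104 to 121) with Tcf21 alone. The intervals of Tbx20 and Hand2 overlapped, and the others did not. In the old library the order was not kept, with 72.6 CPM for Tbx20, 68.9 for Tcf21, 59.6 for Gata4 and 52.8 for Hand2 and overlapping intervals. Barcodes with no factor that lay in the young cluster holding most factor-positive cells, 116 in number, had 359 CPM (324 to 397) of the 15 genes, against 47.5 CPM (45.6 to 49.5) in factor-free barcodes elsewhere. In the old library 262 such barcodes had 69.0 CPM (58.5 to 80.9) against 28.0 CPM (26.6 to 29.5). Barcodes with 1 factor were divided in the same way, at 366 CPM inside the young cluster and 86.9 CPM elsewhere. In the old library they were at 129 and 49.9 CPM. Factor-positive barcodes inside the clusters were at 424 CPM in young and 293 CPM in old. The value of the class with 1 factor is thus a mixture of barcodes inside and outside the cluster. Since the clustering used these genes, these comparisons are a description.

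Factor-positive barcodes were also divided by whether they held a UMI of each factor. These counts chose the cells, and a factor without a UMI may have been missed, so the division is a description. Serpinb9b was higher with Tbx20 in the young library, at 45.1 against 12.5 CPM in barcodes with and without it (log2 ratio 1.86, 1.10 to 2.72). In the old library it was at 55.8 against 41.9 CPM (0.41, -0.76 to 1.89), in 148 barcodes with and 14 without Tbx20. Frzb in the young library was at 76.0 against 35.7 CPM with and without Tbx20 (1.09, 0.63 to 1.58) and at 89.8 against 46.1 CPM with and without Hand2 (0.96, 0.65 to 1.28). In the old library the same comparisons of Frzb gave 0.25 (-0.72 to 1.41) and 0.15 (-0.37 to 0.66).

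5033428I22Rik, the neighbour of Hand2, was at 44.0 against 28.4 CPM with and without Hand2 in young (0.63, 0.22 to 1.05) and 31.3 against 19.0 CPM in old barcodes (0.72, -0.21 to 1.64). Pla1a was lower with Hand2 in both, at 2.55 against 7.97 CPM (-1.65, -3.11 to -0.38) and 5.96 against 18.2 CPM (-1.61, -3.61 to -0.05). Ptn went opposite ways with Gata4, at 150 against 81.1 CPM in young (0.89, 0.65 to 1.13) and 27.4 against 61.3 CPM in old barcodes (-1.16, -1.89 to -0.47), and 1 barcode held 28.9% of its old UMIs. Within-group ratios were computed for 36 genes and 4 factors in each library, so some intervals past 0 can arise by counting error alone.

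Old and young factor-positive barcodes were then compared, which is a comparison of 2 libraries. Of 10230 genes with at least 20 UMIs, 823 (8.04%) were at least 2-fold higher and 490 (4.79%) at least 2-fold lower in the old library, and 762 (7.45%) and 312 (3.05%) when the interval had to exclude no difference. The median log2(old/young) over all genes was 0.125 with CPM and -0.030 with median-of-ratios size factors, which gave 631 higher and 647 lower genes. Of the 1074 genes called with the interval, 586 (54.6%) were also at least 2-fold apart in the same direction between old and young factor-free barcodes, and 33 had the opposite sign there. The share of all genes that far apart in factor-free barcodes is not given, so the 54.6% is a description.

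Chemokines and other inflammatory secreted products were higher in the old library, in factor-positive and factor-free barcodes alike. Of 26 measured inflammatory genes 24 were at least 2-fold higher and 1 (Cxcl13) lower in old factor-positive barcodes, with a median log2(old/young) of 4.18, against 4.26 in factor-free barcodes and 8.04% of all genes higher. Cxcl1, a neutrophil chemokine, was at 31.4 CPM in young and 2889 CPM in old factor-positive barcodes (log2 6.52, 6.31 to 6.75), and at 29.2 and 3480 CPM in factor-free ones (6.90). Cxcl5 was at 56.8 and 4102.5 CPM (6.18) against 20.1 and 2637 CPM (7.04), and the serum amyloid gene Saa3 at 22.5 and 1131 CPM (5.65) against 27.5 and 1547 CPM (5.81). Cxcl2 had 0 UMIs in young factor-positive barcodes and 506 in old ones, so its log2 ratio is at least 8.98 against a limit of 3 counts per library.

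The other genes among the 10 highest were Ccl11, Tnfaip3, Il11, Camp, Serpinb2 and Lcn2, with log2 ratios of 8.76, 6.17, 6.15, 5.44, 5.33 and 5.21 in factor-positive and 6.10, 3.95, 5.20, 6.38, 4.99 and 6.70 in factor-free barcodes. Lists of other themes were measured beside them, with 8.04% of all genes higher, 4.79% lower and a median log2(old/young) of 0.125 as the background. Of the 21 genes induced early by tissue dissociation, 8 were higher and 0 lower (median 0.71, and 0.59 in factor-free barcodes), and of 9 class I presentation genes 4 were higher and 0 lower (0.93 and 0.97). Of 16 adventitial progenitor genes 11 were higher and 1 lower, with Pi16 at 1.24 and 37.2 CPM (4.91) against 0.852 and 62.1 CPM in factor-free barcodes (6.19).

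Among the 10 lowest ratios of old to young, Col11a1 had the lowest of those with UMIs in both libraries. This gene, a fibrillar collagen of cartilage and developing tissue, was at 144 CPM in young and 6.91 CPM in old factor-positive barcodes (log2 -4.38, -5.29 to -3.60), and at 47.0 and 4.39 CPM in factor-free ones (-3.42). It was held by 66.9% of young and 6.79% of old factor-positive barcodes. Mmp16, a membrane metalloproteinase, was at 11.4 and 1.06 CPM (-3.42, -6.49 to -1.50), and Fbn2 at 10.5 and 1.06 CPM (interval -6.38 to -1.38), both on 2 UMIs in the old library. Cav3, the muscle caveolin, was at 17.6 and 2.66 CPM (-2.72) against 6.28 and 0.390 CPM in factor-free barcodes (-4.01). Alcam had 76 UMIs in young and 0 in old factor-positive barcodes, a log2 ratio of -3.08 or lower against 3 counts per library, so its place against Col11a1 is not settled. The other 5 of the 10 lowest were Plcxd2, Mtus2, Gm10371, Slc38a4 and Gm11627, between -3.18 and -2.50.

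Some genes differed between the ages by different amounts in the 2 classes. The difference between log2(old/young) in factor-positive and in factor-free barcodes was 3.11 for Ptn, which was at 116 and 44.1 CPM against 26.5 and 1.17 CPM. It was 2.66 for Ccl11, on 1 UMI in young factor-positive barcodes, 2.41 for Nrn1 (neuritin) and 2.35 for Cck (cholecystokinin), of whose old UMIs 1 barcode held 39.4%. For Tnfaip3, on 4 UMIs in young factor-positive barcodes, it was 2.22. For Foxf1, a forkhead factor of visceral mesenchyme, it was 2.19: Foxf1 was at 7.10 and 33.5 CPM in factor-positive and at 11.1 and 11.5 CPM in factor-free barcodes, and was held by 8.63% of young and 25.3% of old factor-positive barcodes.

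At the other end, Ly6k had a difference of -2.92, Alpl -2.46, Fndc1 -2.10, Sprr1a -1.84, Frzb -1.77 and the glutamate transporter gene Slc1a3 -1.68. Alpl, tissue-nonspecific alkaline phosphatase, was at 16.9 and 55.3 CPM in factor-positive against 1.55 and 28.0 CPM in factor-free barcodes. Fndc1, a fibronectin-domain gene, was at 34.6 and 87.2 CPM against 2.81 and 30.5 CPM. For Alpl, Fndc1 and Frzb the level in factor-positive barcodes was above that in factor-free ones in both libraries, and the young library had the larger ratio. With 1 library per age these differences have no replicate check, and age cannot be told apart from other differences between the 2 libraries.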

How the data were processed

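Single-cell libraries had been prepared with the 10x Genomics Chromium 3′ version 2 kit from collagenase-digested fat of young and old mice, per the labels' protocols. The values the authors deposited are unnormalized UMI counts per gene and barcode, written by Cell Ranger 3.0.1 per the file headers, on mm10 per the submitters' processing notes. The sources used here do not name the annotation release or barcode filter. Of 31053 gene identifiers 30934 were found in GENCODE vM21, which gave coordinates (1-based, GRCm38).

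From these counts, UMIs were summed per library and class and scaled to CPM, with exact Poisson intervals of the log2 ratios. A count of 0 was set to 3 for ratios, which are then bounds. The factors and the other 11 genes of the rule were left out. The libraries were clustered separately in scanpy 1.11.5 (igraph 0.11.9; 2000 variable genes, 30 components, 15 neighbours, Leiden resolution 1). Scrublet's automatic threshold marked 0 doublets, so the 1302 young and 1504 old barcodes with the highest scores were left out as an alternative. The computation was tested on simulated data.

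The genes named were the 15 highest and 10 lowest ratios to factor-free barcodes by the weaker library (at least 50 UMIs), the 10 highest and lowest ratios of old to young, the 6 largest differences in each direction (at least 100 UMIs), up to 5 genes per list with at least 30 UMIs, the called members of a list and a set of free genes such as Gata6, Wt1 and the Hox genes. The genes of the rule, genes on X and Y (such as Bmx), those of mitochondria, ribosomes, globins and antibodies, and genes below 10% of their level in other cell types, were left out of the rankings. Members called in a list below 30 UMIs, Tek, Neil2, Gm10824, Gm34099 and the cluster leaders were named after their values were seen. The factors and the 32 gene lists were chosen with earlier results of these data known. Some results of the BMP and retinoid lists are not reported here.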

Additional observations from a re-analysis of the deposited data

Results flagged for a closer look

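For 8 genes the ratio of factor-positive to factor-free barcodes was at least 2-fold in opposite directions in the 2 libraries, with both intervals excluding no difference. The difference between the libraries was not tested. Of all measured genes 44 were at least 2-fold apart in opposite directions, most of them on few UMIs. The 2 with more counts were Ly6k (116 and 13 UMIs in young and old factor-positive barcodes), with log2 ratios of 1.26 in young and -1.66 in old barcodes, and Nrn1 (83 and 44 UMIs), with -1.13 and 1.28. In Ly6k 1 barcode held 17.2% of the young and 46.2% of the old UMIs. Wdr91 had ratios of 1.09 and -2.53 on 30 and 1 UMIs, Creb3l4 -2.77 and 2.32 on 1 and 5, and Gng7 -3.12 and 1.31 on 1 and 8. Klk8 had -1.52 and 1.34, and without the barcode that held 76.9% of its old UMIs the old ratio was -0.75. Ly6d had 2.48 and -1.76, and without the barcode that held 80% of its young UMIs the young ratio was 0.17. Mmp10 had -1.06 and 1.42, the first against 3 counts because 0 young factor-positive UMIs were found.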

How the results depend on the processing

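The share of factor-positive barcodes was higher in the young library under all 12 alternatives run, at 2.18 to 3.21 times the old share. The shares themselves followed the rule: without Tbx20 they were 3.20% and 0.999% (young and old), without Tcf21 3.55% and 1.63%, without Gata4 4.54% and 1.74%, without Hand2 4.56% in the young, with at least 3 factors 2.002% and 0.805%, with at least 30 collagen UMIs 7.18% and 3.001%, and with barcodes thinned to 3000 UMIs 1.56% and 0.679%. The count of genes higher in both libraries was 247 when thinned barcodes chose the cells (92 of them among the 145), 254 without a minimum count and 73 with 100 UMIs. The count of lower genes was 137 under thinning, 48 of them among the 178 first counted, and 112 when the interval had to exclude no difference, a demand added after the data were seen. Old against young, higher genes numbered 1235 without a minimum and 346 with 100 UMIs, and lower genes 779, 144 and, with the interval, 312. Clusters at resolutions of 0.5 and 2 held 56.8% and 54.3% of the old factor-positive barcodes. Fewer genes are tested at the higher minimum; the cause was not tested for the others. Leaving out the factor-positive barcode with the most UMIs of each gene was also added later. It gave 102 higher and 263 lower genes, 137 of the latter among the 178, and took Sprr1a to 0.95 (weaker library, log2). The factor-free side was left unchanged in this setting. Old against young, it gave 763 higher and 634 lower genes. Under thinning Ccl17 and Serpinb2 were less than 2-fold apart in the weaker library. Sprr1a and Wfdc18 then had no ratio in the same direction in both libraries. Old against young, Alcam and Gm11627 were less than 2-fold apart under thinning, and Gm11627 and Slc38a4 with at least 3 factors. Apart from Sprr1a and Wfdc18 under thinning, the genes named by rank in these 2 comparisons kept their direction under the alternatives. For genes named by lists this was not computed. Klk8, which went opposite ways in the libraries, turned from 1.34 to -0.75 in the old one without its highest barcode. Depth limits the old library most, where 162 barcodes with 1880087 UMIs carry each ratio. No paired analysis was possible because each age has 1 library.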

Other observations

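The rule left out barcodes with a UMI of Upk3b or Upk1b, markers of the mesothelium. Of 716 collagen-positive young barcodes with such a UMI, 41 (5.73%, interval 4.14 to 7.69) held 2 or more factors, and of 163 old ones 3 (1.84%, 0.381 to 5.28). Cycling barcodes had Tbx20 at 22.2 CPM (young) and 12.2 CPM (old), and Tcf21 at 19.8 and 3.32 CPM. Of the barcodes with the highest doublet scores, 44 young and 11 old ones were factor-positive, which is 10.3% and 6.79% of these cells, against 7.52% and 8.55% of factor-free barcodes.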
